A study of Mus musculus with 2 samples.

Results

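The genes described here encode the conjugation enzymes of phase II detoxification. They were chosen by symbol alone as the glutathione transferases (Gsta, Gstk, Gstm, Gsto, Gstp, Gstt, Gstz and Mgst), the UDP-glucuronosyltransferases and their relatives (Ugt1, Ugt2, Ugt3 and Ugt8) and the cytosolic sulfotransferases (Sult). The array carried 59 probe sets for them. Of these, 54 were annotated to a single gene and read 41 of the 12393 genes that could be named, and 5 were annotated to several genes and are described apart. The RefSeq table lists 68 protein-coding genes under these names, of which 52 had a probe set of their own or a shared one.

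The RNA came from back skin of mice aged 10 days. The transgenic animals carried a constitutively active aryl hydrocarbon receptor (AhR) in keratinocytes, and the controls were their littermates without the transgene. Total RNA labelled with biotin was hybridised to 1-colour oligonucleotide arrays, 1 per genotype, so no difference could be tested and no replicate error is known. The transgenic sample is titled with K14, but the labels give neither the promoter nor the strain, nor whether an array held 1 animal or a pool.

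AhR is a transcription factor that senses dioxins and other planar aromatic compounds and, paired with ARNT, binds DNA at sites with the core GCGTG. Its classical targets are phase I oxidases of the Cyp1 family, and conjugating enzymes, among them glutathione transferases of the alpha class and Ugt1a6, are textbook members of the same response in liver. Conjugating enzymes attach glutathione, glucuronic acid or sulfate to reactive or lipophilic molecules so that these can be exported. In skin the same enzymes also act on endogenous substrates such as lipid peroxides, leukotrienes and cholesterol.

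Values are signal intensities in arbitrary units. Signals under 34.7, the 40th percentile of all signals other than those of control probe sets, were set to that floor, and a gene was called measured when its brightest probe set exceeded the floor on at least 1 array. Each gene's transgenic signal was divided by its wild-type signal, and this ratio is given on the log2 scale and called at 2-fold. Where 1 array lay at the floor the fold is a lower bound, written "at least". Signals of different probe sets are not comparable with each other, so each gene is compared only with itself. Summed signals, given for some marker lists, are set mostly by the brightest probe sets of the list.

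Few conjugation genes passed a 2-fold difference between the arrays. Of the 41 genes, 20 were measured. Among them Mgst2 was at least 2-fold higher on the transgenic array and Gstz1 at least 2-fold lower, and none of the other 18 passed 2-fold. Mgst2 and Gstz1 each had 1 array at the floor, and neither was called with the floor at the 60th percentile. Over all 8894 measured genes 2.27% passed 2-fold upward and 1.09% downward, so a single gene of 20 in each direction is close to the background. The 16 members above the floor on both arrays all lay within 1.5-fold, as did 87.9% of the 7972 named genes of that kind. The other 2, Gsta4 and Gstp3, had the wild type at the floor and have only lower bounds. With bounds at their floored values, the median log2 ratio was -0.07 over the members and -0.05 over all measured genes, with 9 members above 0 and 11 below.

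**Figure D1:**
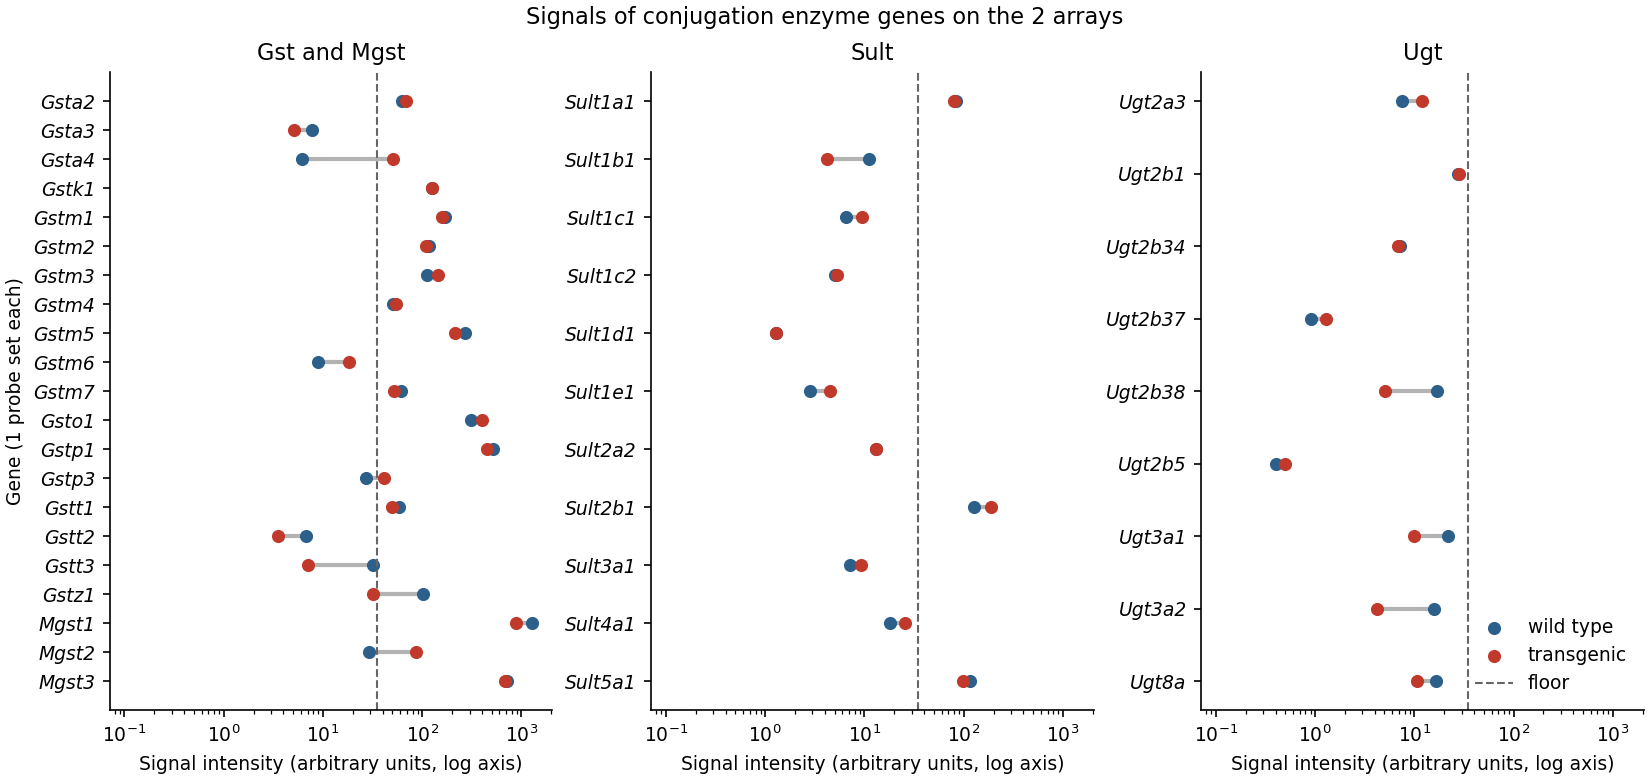
Signal of each of the 41 conjugation enzyme genes on the wild-type (blue) and the transgenic (red) array, by its brightest probe set, on a log axis in arbitrary units. The dashed line is the floor of 34.7. Most pairs of points nearly coincide, all 9 Ugt genes lie left of the floor, and Gsta4, Gstp3, Gstz1 and Mgst2 cross it between the arrays.

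With no replicates, the agreement of probe sets that read the same gene shows only part of the technical error. Over 1764 genes for which exactly 2 probe sets exceeded the floor in both genotypes, the difference between the probe sets implied an SD of 0.27 for the log2 ratio of 1 probe set, and 83.8% of the pairs agreed within 0.5. The log2 ratios of all genes that exceeded it in both genotypes had an SD of 0.42, real differences included. Of the 16 members above the floor on both arrays 11 had a log2 ratio within 0.27 of 0. This spread holds no error shared by both probe sets of a gene, such as that of labelling or hybridisation. It also holds no variation between animals. These arrays can show neither.

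Promoter windows were taken from RefSeq (mouse assembly GRCm38.p6, 250 bases before to 50 bases after each listed start). They were searched on both strands for GCGTG and for TGACNNNGC, the core of the antioxidant response element bound by Nrf2. Of the 20 measured members 19 had a window. GCGTG occurred in 36.0% of the 25 windows of measured members, in 20.8% of the 72 windows of all genes with these names and in 32.4% of all 32851 windows. TGACNNNGC occurred in 12.0%, 5.56% and 12.4%. The measured members with GCGTG were Gsta2, Gstm1, Gstm5, Gstp1, Gstp3, Mgst3 and Sult2b1, and their log2 ratios, with bounds at their floored values, ran from -0.35 to 0.58 with a median of -0.06. The 12 without it ran from -1.54 to 1.32 with a median of -0.08. The 3 with TGACNNNGC, Gstm5, Gstm7 and Mgst1, ran from -0.54 to -0.22. Neither motif was in the window of Mgst2 or in either window of Gstz1.

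The bases before the start are shown for 4 measured genes, picked after their values were seen. They are Mgst2, which was called higher and had no match, Sult2b1, which had the highest log2 ratio among members above the floor on both arrays and a GCGTG, Gstm5, which had both motifs, and Mgst1, which had a TGACNNNGC. Capitals mark matches, and a match on the opposite strand appears as its reverse complement. In Gstm5 the second GCGTG, on the opposite strand, lies inside the TGACNNNGC match. Sult2b1 is shown for one of its 2 listed starts. The other has its GCGTG after the start. Mgst1 is also shown for one of 2 listed starts, and the window of its other start held neither motif. A match shows letters in a window and not a bound site.
Mgst2 (chr3:51660929-51661178, plus strand): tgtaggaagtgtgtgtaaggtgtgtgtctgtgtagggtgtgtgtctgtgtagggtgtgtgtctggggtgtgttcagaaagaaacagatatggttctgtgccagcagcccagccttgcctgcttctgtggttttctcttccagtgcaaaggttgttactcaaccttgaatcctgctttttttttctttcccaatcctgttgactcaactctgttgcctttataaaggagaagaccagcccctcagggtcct
Sult2b1 (chr7:45742479-45742728, minus strand): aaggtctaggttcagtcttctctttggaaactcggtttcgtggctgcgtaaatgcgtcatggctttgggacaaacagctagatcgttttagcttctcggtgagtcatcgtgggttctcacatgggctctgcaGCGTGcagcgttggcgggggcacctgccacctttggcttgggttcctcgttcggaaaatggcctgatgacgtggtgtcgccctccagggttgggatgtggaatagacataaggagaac
Gstm5 (chr3:107895604-107895853, plus strand): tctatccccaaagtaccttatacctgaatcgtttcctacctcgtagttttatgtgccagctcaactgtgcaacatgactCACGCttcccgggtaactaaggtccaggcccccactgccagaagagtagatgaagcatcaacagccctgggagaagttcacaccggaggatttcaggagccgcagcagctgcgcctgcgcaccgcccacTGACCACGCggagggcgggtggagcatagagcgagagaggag
Mgst1 (chr6:138140277-138140526, plus strand): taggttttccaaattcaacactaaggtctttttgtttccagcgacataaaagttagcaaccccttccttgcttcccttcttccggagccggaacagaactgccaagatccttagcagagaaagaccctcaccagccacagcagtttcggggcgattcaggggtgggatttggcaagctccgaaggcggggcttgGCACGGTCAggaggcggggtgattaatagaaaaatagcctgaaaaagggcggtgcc

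Of the 3 membrane-bound glutathione transferases only Mgst2 passed 2-fold. Mgst2, which can make leukotriene C4 from leukotriene A4, read 86.9 on the transgenic and 29.0 on the wild-type array. It was at least 2.5-fold higher (log2 ratio at least 1.32). It is read by a single probe set, whose name carries no mark of possible cross-binding. Mgst1, an enzyme of the endoplasmic reticulum and outer mitochondrial membrane, read 883 against 1284, a log2 ratio of -0.54. The central 95% of genes with a mean signal above 280, above the floor on both arrays, ran from -0.72 to 0.96, so Mgst1 lies inside it. The other probe set of Mgst1 stayed under the floor (12.3 and 11.8). Mgst3 read 686 against 715 (log2 ratio -0.06), and its other probe set stayed under the floor too.

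Whole skin mixes many cell types, and in bulk RNA more cells of a type and more RNA per cell cannot be told apart. Keratinocyte markers checked the tissue label, with all 11 basal and all 11 suprabasal genes measured. Their median log2 ratios were 0.59 and 0.77, with 2 basal and 4 suprabasal genes below 0. Of 15 measured macrophage markers 10 passed 2-fold upward on the transgenic array, with a median of 1.58 and summed signals of 3367 against 1126. Of the 16 macrophage markers on the array only Aif1 did not reach the floor on either array. Of 7 measured mast cell markers 2 were at least 2-fold higher (median 0.80, summed signals 984 against 595), and Hdc lay below the floor. The part of these cells in the higher Mgst2 signal was not tested. Markers of several cell types were lower together with Mgst1. Of 8 measured sebaceous gland genes 2 were at least 2-fold lower and 7 lay below 0, with a median of -0.40 and summed signals of 1496 against 2522, and none was below the floor on both. The brightest of them, Scd1, weighs most in these sums (679 against 1456). Below 0 lay also 8 of 9 melanocyte markers (median -0.83), 12 of 13 measured skeletal muscle markers (-0.63) and 15 of 16 hair shaft and inner root sheath markers (-0.38). Medians of fibroblast (0.21), endothelial cell (0.14), adipocyte (0.1) and Schwann cell markers (0.24) lay above 0. So did those of T cell (0.77, with 2 measured) and neutrophil markers (0.31). The part of any cell type in the lower Mgst1 signal was not tested.

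Among the soluble glutathione transferases Gstz1 showed the only 2-fold difference at the main floor. The zeta enzyme is maleylacetoacetate isomerase, a step in the breakdown of phenylalanine and tyrosine. Gstz1 read 32.1 on the transgenic and 101 on the wild-type array, at least 2.91-fold lower (log2 ratio at most -1.54). Its only probe set has an "_a" name, which marks probes shared by several transcripts of the gene. Other transcripts of Gstz1 were therefore not read separately.

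In the alpha class, which holds the transferases best known as inducible by AhR and Nrf2 in liver, Gsta4 was the one with a sizeable difference. The enzyme conjugates 4-hydroxynonenal, a product of lipid peroxidation. Gsta4 read 51.0 against 6.2. The wild-type signal was far under the floor, so the difference is bounded at 1.47-fold or more (log2 ratio at least 0.56). A lower floor, at the 20th percentile (11.9), placed Gsta4 at least 4.29-fold higher, and a pseudocount of 16 gave a log2 ratio of 1.59. How large the difference is therefore rests on how far signals under the floor are trusted. Gsta2 read 68.5 against 62.8 (log2 ratio 0.13), a probe set shared by Gsta1, Gsta2 and Gm3776 did not reach the floor (31.3 and 21.2), nor did either probe set of Gsta3.

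The 7 mu-class genes lie next to each other, from Gstm5 to Gstm4, with no other protein-coding gene between them. All 6 measured members of the cluster lay within 1.5-fold, with log2 ratios from -0.35 to 0.36. Gstm5 was lowest, at 214 against 273. Gstm3 was highest, at 144 against 112, by a probe set named as matching transcripts of more than 1 gene, while its other probe set read 1.1 on both arrays. Gstm2 (109 against 116) and Gstm4 (54.1 against 50.7) read nearly alike on both arrays. Gstm6 lay below the floor on both (18.2 and 8.9). Several probe sets of one gene show how far such small differences can be trusted. The 4 probe sets of Gstm1 gave log2 ratios of -0.42, -0.19, -0.11 and 0.21, and the 2 of Gstm7 gave -0.22 and, with the wild type at the floor, 0.21. Both genes thus had probe sets on either side of 0.

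In the other soluble classes no measured gene passed 2-fold. Gsto1, a dehydroascorbate reductase of the omega class, read 397 against 309 by its brighter probe set (log2 ratio 0.36) and 199 against 179 by the other (0.16), so both probe sets were slightly higher on the transgenic array. Gstp1, the pi-class enzyme, read 450.5 against 522 (log2 ratio -0.21). Gstp3, of the same class, read 41.5 against 27.4, at least 1.2-fold higher. Gstk1, the kappa enzyme of mitochondria and peroxisomes, read 126 against 125. Gstt1, of the theta class, read 49.6 against 58.9 (log2 ratio -0.25). The theta gene Gstt3 lay just under the floor on the wild-type array (7.1 against 32.0) and was not measured by the rule, though at the lower floor it was at least 2.69-fold lower. Gstt2 read 3.5 and 6.8.

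**Figure D2:**
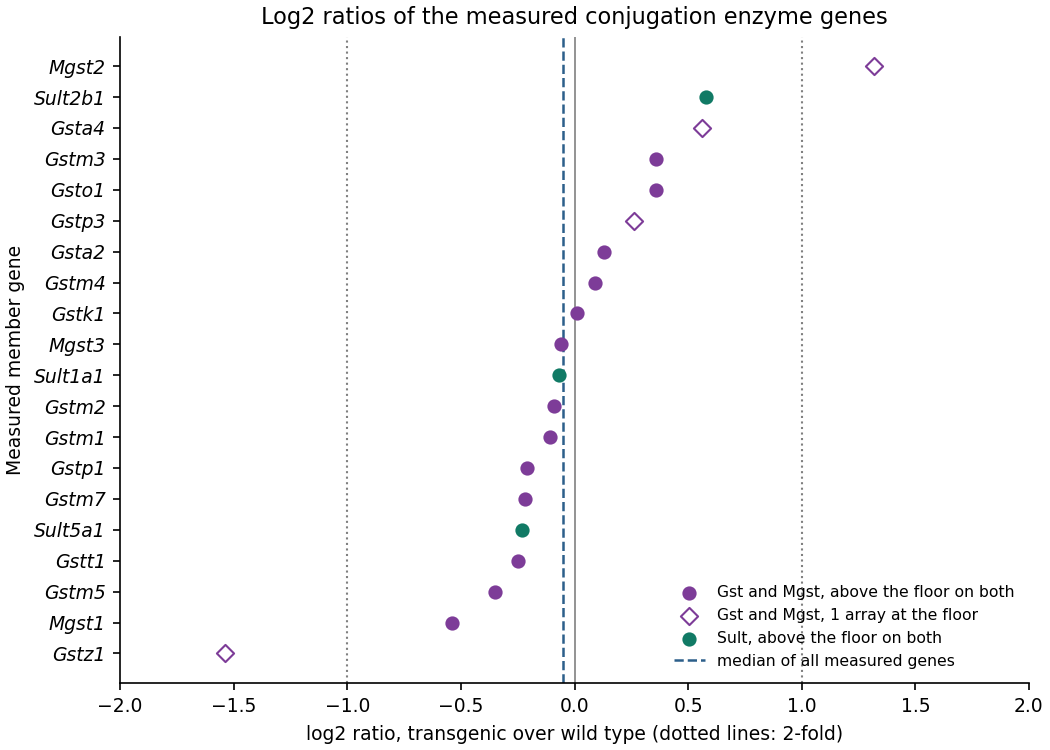
Log2 ratio between the genotypes (transgenic over wild type) for the 20 measured conjugation genes, in order of these values. Filled points are above the floor on both arrays, open diamonds have 1 array at the floor and are bounds, so their place in the order is not fixed, dotted lines mark 2-fold and the dashed line is the median of all measured genes (-0.05). Mgst2 (1.32) and Gstz1 (-1.54) alone lie outside 2-fold.

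The UDP-glucuronosyltransferases were seen almost only through the Ugt1a cluster. Ugt1a genes have their own first exons and share the remaining ones, and the 3 probe sets for them were each annotated to the same 8 genes, so no single enzyme can be read. The brightest of the 3 gave 997 on the transgenic and 714 on the wild-type array, a log2 ratio of 0.48. Another gave 190.4 against 137 (0.47). The remaining probe set gave 360.1 against 368 (-0.03). The cluster was thus about 1.4-fold higher by 2 of its probe sets and equal by the other, and all 3 carry a name suffix that marks shared probes. Their ratios ran from 0.42 to 0.53 for the 2 higher probe sets under every setting that gave a value, and from -0.03 to 0.02 for the other. At the main setting the 2 higher ratios lie inside the central 95% of genes of like signal. That range ran from -0.72 to 0.96 above a mean signal of 280 and from -0.75 to 0.98 between 140 and 280. Whether Ugt1a6, the member best known as an AhR target, differed from its neighbours cannot be seen in these values.

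None of the 9 other Ugt genes reached the floor on either array. Ugt2b1, a liver enzyme of steroids and drugs, came closest with 28.3 and 27.6. The other Ugt2 genes read from 0.4 to 17.0 by their brightest probe sets, and the probe set shared by Ugt2a1 and Ugt2a2 read 6.1 and 8.6. Ugt3a1 read 9.9 and 21.9 and Ugt3a2 4.2 and 15.9. Ugt8a, which makes the galactosylceramide of myelin, read 10.7 and 16.7, while all 4 Schwann cell markers on the array were measured. The Ugt2 genes share a run of 13 neighbouring genes, from Ugt2b34 to Sult1e1, with 3 sulfotransferases. None of the 9 genes of this run with a probe set of their own exceeded the floor on either array, and their highest signal was 28.3.

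Of 11 sulfotransferase genes 3 were measured, and none passed 2-fold. Sult2b1, which sulfates cholesterol in the upper epidermis, read 188 on the transgenic and 126 on the wild-type array. It was 1.5-fold higher (log2 ratio 0.58). Genes with a mean signal from 140 to 280, above the floor on both arrays, had an SD of 0.45 and a central 95% from -0.75 to 0.98, and Sult2b1 lies inside that range. Keratinocyte markers had medians above 0 as well (0.59 for basal and 0.77 for suprabasal genes). Of these markers 2 of 11 basal and 4 of 11 suprabasal genes lay below 0. The part of keratinocytes in the higher Sult2b1 signal was not tested. Sult1a1, the main phenol sulfotransferase, read 79.2 against 83.2 (log2 ratio -0.07). Sult5a1 read 99.3 against 116 (-0.23).

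The other 8 sulfotransferases did not reach the floor on either array. They included Sult1e1, the estrogen sulfotransferase (4.5 and 2.8), Sult1b1 (4.2 and 11.2), Sult1d1 (1.3 on both), Sult1c1 (9.4 and 6.6) and Sult1c2 (5.3 and 5.1). Sult2a2, of a liver group that sulfates hydroxysteroids, read 13.0 on both, Sult3a1 9.2 and 7.1, and Sult4a1, known from brain, 25.8 and 18.3. Of a run of 8 neighbouring Sult2a genes Sult2a2 was the only one with a probe set of its own.

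The conjugation genes stood beside a difference in other genes of the AhR battery. Cyp1a1 read 1802 against 40.8, and all 5 measured genes of a list of AhR targets without conjugating enzymes passed 2-fold upward (median log2 ratio 1.78). Without suffixed probe sets 3 genes of this list were. Cyp1a2 and Ahrr lay below the floor. The lowest measured member of that list was Tiparp (2.2-fold). Between it and Cyp1a1 lay Cyp1b1 (3.95-fold), Aldh3a1 (3.44-fold) and Nqo1 (at least 2.41-fold, with the wild type at the floor).

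In the lists of genes for glutathione synthesis and recycling, glucuronic acid, sulfate and export, only 3 glutathione peroxidase genes passed 2-fold. Of 13 measured genes of glutathione synthesis and recycling 3 passed 2-fold upward and none downward. They were Gpx2 (153 against 48.5, 3.15-fold), Gpx3 (268 against 98.8, 2.71-fold) and Gpx1 (985 against 464, 2.12-fold), which reduce peroxides with glutathione. Gpx4, the peroxidase of membrane lipids, read 486 against 436 (1.11-fold). Of the 13 genes 8 (61.5%) lay within 1.5-fold by floored values, against 86.8% of all measured genes. The genes that make or regenerate glutathione did not share this direction. Gclc, the catalytic subunit of the first step of synthesis, had a log2 ratio of -0.55, its partner Gclm -0.38, the synthetase Gss -0.04 and the reductase Gsr -0.73. The lowest gene was Chac1, which degrades glutathione (658 against 1148, log2 ratio -0.80). The median of the list was 0.16.

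For glucuronidation, 5 genes that make, move or reverse glucuronic acid conjugation were measured and none passed 2-fold (median 0.29). Gusb, a lysosomal glucuronidase, read 68.8 against 46.5 (0.57). Ugp2, which makes UDP-glucose, was lowest at 271 against 321 (-0.25). For sulfation, none of 7 measured genes differed by 2-fold (median -0.02). Papss2, which makes the sulfate donor PAPS, read 64.8 against 34.2, at least 1.87-fold higher, and Papss1 361 against 332 (0.12). Bpnt1, which clears the by-product of PAPS use, read 57.6 against 91.5 (-0.67). Of 8 export pumps on the array 3 were measured, from Abcg2 (56.8 against 37.8, 0.59) to Abcc5 (315 against 384, -0.29). None differed by 2-fold.

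Among 7 measured genes of other phase I and phase II enzymes, 2 carbonyl-reducing enzymes were at least 2-fold higher. They were Cbr3 (219 against 87.7, 2.5-fold) and Akr1b8 (131 against 59.0, 2.21-fold). With the floor at the 60th percentile, or a pseudocount of 16, 1 gene of the list was at least 2-fold higher. The methyltransferase gene Nnmt had the lowest log2 ratio among genes above the floor on both arrays (-0.32). Ces1d, a carboxylesterase gene, read 9.2 against 34.8, with the transgenic signal under the floor. With the floor at the 20th percentile, or that pseudocount, 1 gene was at least 2-fold lower. The median was -0.17. Of 9 measured regulators and targets of Nrf2 that were in none of the other lists, none passed 2-fold (median 0.05). They ran from Nfe2l2, the gene of Nrf2 itself (0.86), to the thioredoxin reductase gene Txnrd1 (-0.70). Conjugation genes and the lists around them therefore had medians between -0.17 and 0.31, and the median of the AhR battery alone lay above 1.

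**Figure D3:**
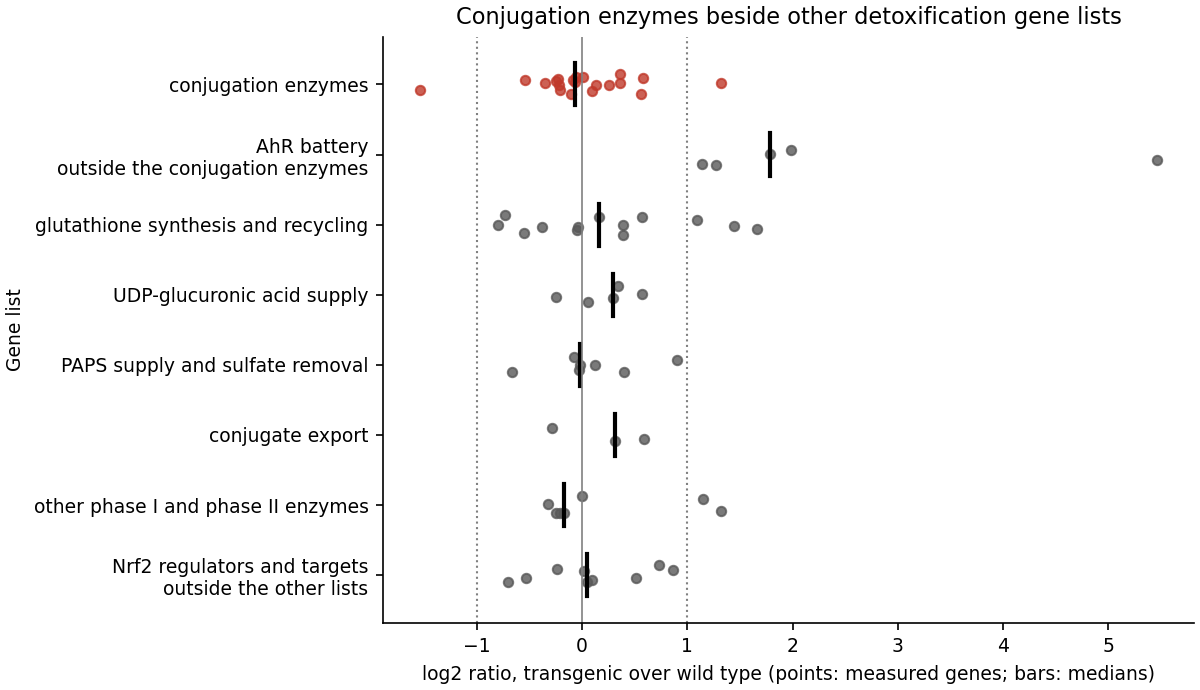
Log2 ratio between the genotypes (transgenic over wild type) for the measured genes of the conjugation enzymes (red) and of 7 other lists (grey), with the median of each as a bar and 2-fold as dotted lines. All 5 points of the AhR battery lie above 1, while the medians of the other lists lie between -0.17 and 0.31.

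The values of Mgst2 and Gstz1 depended on the floor, since 1 array of each lay under it. With the floor at the 60th percentile (70.7) Mgst2 was at a log2 ratio of 0.30 and Gstz1 at -0.51, and no conjugation gene was called. Without suffixed probe sets Gstz1 had no value and Mgst1 was not measured, because its remaining probe set lay under the floor on both arrays. Sult2b1 and Mgst1 lay well above the floor on both arrays. Sult2b1 ran from 0.53 to 0.64 under the settings, and Mgst1 from -0.62 to -0.49 under those in which it was measured.

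**Figure D4:**
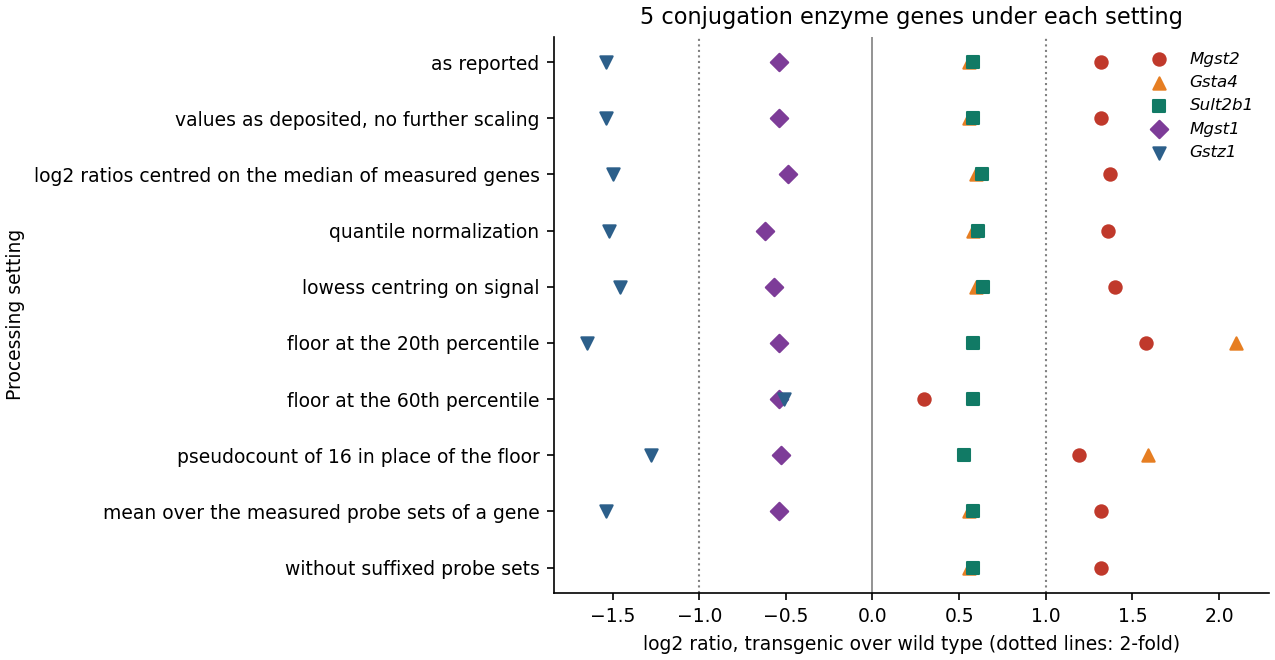
Log2 ratio of 5 conjugation genes (x axis) under the reported setting and each alternative that leaves the limit unchanged (y axis). Mgst2, Gsta4 and Gstz1 move with the floor, from 0.30 to 1.58 for Mgst2 and from -1.65 to -0.51 for Gstz1, and no point crosses 0. A missing point means that the gene was not measured under that setting.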

How the data were processed

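The 1-colour arrays gave 1 signal per probe set. The deposited intensity values are linear and never negative, and their 2% trimmed mean was 100.03 on both arrays, so the authors had scaled them before deposit. Which software was used is not stated in the labels, and detection calls and scanner files were not used. Of 22690 probe sets 64 were controls. Genes came from the platform annotation of 2016, with symbols checked by gene identifier against a RefSeq table of GRCm38.p6 (20380 probe sets had 1 gene, 691 several, 1555 none).

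Signals were rescaled to equal 2% trimmed means, floored at the 40th percentile and put on the log2 scale. A gene took its brightest probe set, by the sum over both arrays. With 1 array per genotype no test was made, and precision is limited by their number. All members were accounted for, and of each pathway list the highest, the lowest and the 2-fold genes were named. Gclc, Gclm, Gss, Gsr, Gpx4, Papss1, Ces1d, Cyp1a2 and Ahrr were added after their values were seen. Members and lists were chosen with earlier results of these data known. Of 16 glutathione genes 14, of 6 glucuronic acid genes 5, of 10 sulfate genes 8, of 9 export genes 8, of 19 other enzyme genes 16 and of 12 Nrf2 genes 10 were found on the array by symbol. The calculation was checked on simulated arrays. Fold changes were put only into genes well above the floor on both arrays, so bounds at the floor were not checked. Alternatives were other scalings, floors, probe set choices and limits. Python 3.11.15, numpy 2.4.6, pandas 2.3.3 and statsmodels 0.14.6 were used.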

Additional observations from a re-analysis of the deposited data

How the results depend on the processing

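The median log2 ratio of the members stayed between -0.08 and 0.00 under every setting, against -0.05 to 0.00 over all measured genes. The counts of members past the limit followed the floor and the limit. With the floor at the 20th percentile (11.9) 2 members were at least 2-fold higher (Gsta4 and Mgst2) and 2 at least 2-fold lower (Gstt3 and Gstz1), of 29 measured, while 3.61% of all measured genes were higher and 2.36% lower. With a pseudocount of 16 there were 2 higher (Gsta4 and Mgst2) and 1 lower. With the higher floor (60th percentile) or a limit of 3-fold, 0 were higher and 0 lower. Without suffixed probe sets 1 was higher and 0 lower, of 14 measured, because the only probe set of Gstz1 is suffixed. A limit of 1.5-fold, quantile normalization, lowess centring (span 0.4), median centring, unscaled values and the mean over probe sets each left the counts at 1 and 1. Of 168 values of single members under alternatives 6 moved by more than the probe set SD of 0.27 and none of the called genes changed sign. The 6 were Gsta4 (2.10 at the lower floor and 1.59 with the pseudocount), Gstp3 (0.60 at the lower floor), Gstz1 (-0.51) and Mgst2 (0.30) at the higher floor, and Gstm1 (-0.42 without suffixed probe sets). Over all genes the 20th percentile floor gave 393 higher and 257 lower genes, and the 60th gave 123 and 45, against 202 and 97. The 1.5-fold limit gave 605 and 567, and the 3-fold limit 61 and 9. No paired analysis was possible because each genotype has 1 array. Replicates could not be left out for the same reason.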

Other observations

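The 21 unmeasured members show how much of the family the arrays did not read in skin. Only 48.8% of the conjugation genes were measured, against 71.8% of all named genes. By family 17 of 21 glutathione transferase genes (81.0%), 3 of 11 sulfotransferase genes (27.3%) and none of 9 single-gene Ugt genes passed the floor on at least 1 array.

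Some genes of the family had probe sets with very different signals. Mgst1, Mgst3 and Gstm3 each had 1 probe set far above the floor (883 and 1284 for Mgst1, 686 and 715 for Mgst3, 144 and 112 for Gstm3 on the transgenic and wild-type array) and 1 below it on both arrays (12.3 and 11.8, 12.2 and 7.7, and 1.1 and 1.1).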
